A study of Homo sapiens with 6 samples.

Results

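The regions described here are 3′ untranslated regions (3′ UTRs) of protein-coding genes over which short RNAs of the opposite strand were counted. They were selected on the deposited values themselves: a coding 3′ UTR was taken when its antisense value was above 0 in Caco2 WT or in PIWIL2 KO cells, and rows with the same chromosome, start and strand were counted once. Of 1500 coding 3′ UTR regions, 79 met this rule, and they belong to 77 genes on 21 chromosomes. Another 623 regions had short RNA of the sense strand only, and 798 were listed at 0 on both strands. Since the antisense values chose the 79 regions, those values are given as a description and were not tested.

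Short RNA was sequenced from 3 samples of Caco2 WT and 3 samples of PIWIL2 KO, to ask whether short RNAs change when PIWIL2 is depleted. Caco2 is an established cell line of the human colon epithelium, and the wild-type cells are the parent line. PIWIL2 KO cells were made from them with CRISPR/Cas9 and are a single expanded clone, which by the study's own account kept part of its PIWIL2, so the comparison is of 1 clone with its parent line and a clonal difference and a PIWIL2 difference cannot be told apart. Both genotypes were grown to confluency, and the labels give no treatment or time point. PIWIL2 itself has no row in the table, so the knockout could not be checked here.

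PIWI proteins bind short guide RNAs called piRNAs, and are known mainly from germ cells, where guides antisense to transposable elements direct their silencing. Some piRNAs are also cut from the 3′ UTRs of messenger RNAs, and these have the sequence of the sense strand. Antisense RNA over a 3′ UTR has other known sources, among them neighbouring genes on the other strand that converge on the UTR, long noncoding RNAs (lncRNAs) transcribed against the gene, and copies of small RNA genes that lie within the UTR in the reverse direction.

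Each region has 1 value for each genotype and strand, combined over samples (called pooled here) and scaled to the number of mapped reads (CPM). No spread between replicates could therefore be computed and no comparison of genotypes could be tested. From the steps between low values, 1 read was estimated to be worth 0.0775 CPM in Caco2 WT against 0.0738 in PIWIL2 KO. That makes about 12900000 uniquely mapped reads in the first and 13600000 in the second. The paper describes its sequencing values as normalized averages of 3 biological replicates. A single worth of 1 read, and the counting intervals built on it, assume instead that the samples were counted together, which was not tested. Where no read was seen, an expected count of up to about 3 reads is still allowed by counting error. That is 0.2325 CPM for Caco2 WT and 0.2214 CPM for PIWIL2 KO. It does not mean that reads that were seen are listed at 0. All 95% intervals are exact Clopper-Pearson or Poisson intervals. Those on estimated reads cover counting error only, since reads amplified by PCR and not tagged by molecule are not independent.

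In 4 of the 79 regions a small RNA gene lay on the opposite strand, wholly inside the region. The short RNA was counted on the strand of these genes, which resemble abundant small RNAs of the cell, and sequences of the Y RNA pair are shown for that reason. In HINT3, a nucleotide hydrolase of the histidine triad family, and in SIAE, a sialic acid esterase, the annotated genes RNA5SP216 and RNA5SP352 are pseudogenes of 5S ribosomal RNA. In C3orf62 and GVQW3 they are copies of Y RNA, a class of small noncoding RNAs bound by the Ro protein. The stretch below is the 30-base part of the Y RNA gene RNY1, from its base 5, in which C3orf62 and GVQW3 together matched best. Each is written 5′ to 3′ on the strand opposite the host gene, with capitals for bases identical to the named small RNA and lower case for bases that differ. The gene sequences are those of GENCODE 44 and the sites are from hg19.
RNY1: GGTCCGAAGGTAGTGAGTTATCTCAATTGA
C3orf62 site: GGTCCaAAGGTAtTGAGTTATCTCAATTGA
GVQW3 site: GGTCCaAAGGTAGTGAGTTATCTCAATcaA

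The C3orf62 site, at chr3:49307569-49307598 on the plus strand, was identical to RNY1 in 28 of 30 bases, and the GVQW3 site, at chr11:76115263-76115292 on the minus strand, in 27 bases. The genes were also aligned locally, which keeps only the best matching part. In RNA5SP216 (123 bases), 53 of 55 aligned bases were identical to the 5S gene RNA5S1 (119 bases). In RNA5SP352 (134 bases), 87 of 90 were identical to RNA5S1. Against RNY1 (113 bases), 89 of 103 aligned bases were identical in the C3orf62 copy (108 bases) and 97 of 110 in the GVQW3 copy (113 bases).

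**Figure D1:**
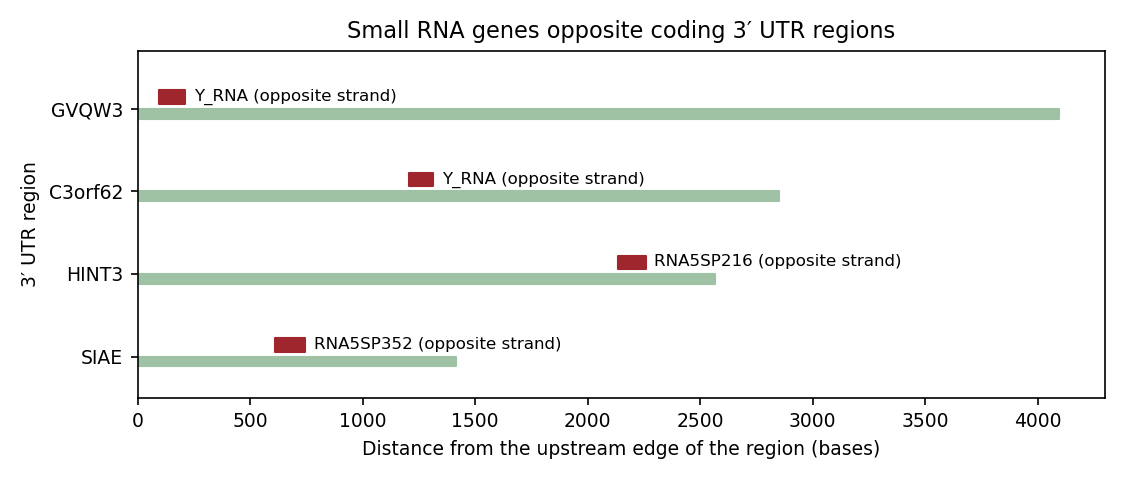
The map shows the 4 coding 3′ UTR regions with a small RNA gene on the opposite strand, with distance in bases from the upstream edge of the region on the x axis, the region as a green bar and the small RNA gene in red. RNA5SP216 lies 2135 to 2257 bases into the 2568-base HINT3 region, near its downstream end, while the Y RNA copy of GVQW3 starts 97 bases from the upstream edge.

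HINT3 (chr6:126298823-126301390, plus strand) had 1.82 antisense CPM in Caco2 WT against 1.01 in PIWIL2 KO, against 0.08 and 0 CPM on the sense strand. Its level in PIWIL2 KO was 0.555 times that in Caco2 WT (95% counting interval 0.276 to 1.18, from about 23 and 14 reads). HINT3 has a single row, and neither value is a whole number of reads. The counts are therefore rounded and the interval is approximate, and the source of the fractions was not tested. Of the 4 regions with a small RNA gene opposite, HINT3 was the only one above 0.3 CPM. C3orf62 and GVQW3 had the same values, 0.03 antisense CPM in Caco2 WT against 0.05 in PIWIL2 KO, and both were listed at 0 on the sense strand. Those 2 Y RNA copies were identical to each other in 77 of 96 aligned bases, with a longest shared run of 14 bases. SIAE, which also faces the 3′ end of the coding gene TBRG1, had 0.02 antisense CPM in Caco2 WT against 0.01 in PIWIL2 KO. The values of SIAE, C3orf62 and GVQW3 in a single row are each below the worth of 1 read, and the table gives no read positions, so whether the counted reads came from these copies or elsewhere in the UTR was not tested.

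Only 5 of the 79 regions had a mean antisense level of at least 0.3 CPM, and all 5 were lower in PIWIL2 KO than in Caco2 WT. The rule selected on these values, so nothing is read from this. Of all 9 regions of the table with at least 0.3 antisense CPM, noncoding genes included, 88.9% were also lower. None of the 5 was lower by 2-fold or more on the log2(CPM + 0.1) scale, against a background of 22.2%, and none was higher by 2-fold, against a background of 0%. The median log2 ratio (PIWIL2 KO over Caco2 WT) was -0.69 over the 5 regions and also -0.69 over the 9. The 5 are among the 9, and both medians equal the value of IL12RB2, which enters with a pair of starts. These 5 regions held 72.0% of the summed antisense CPM of the 79 regions in Caco2 WT and 65.4% in PIWIL2 KO.

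The highest antisense levels were those of IL12RB2, the beta 2 subunit of the interleukin 12 receptor, which is listed with a pair of UTR starts 19 bases apart. The regions chr1:67861264-67864407 and chr1:67861283-67864407, on the plus strand, each had 2.21 antisense CPM in Caco2 WT against 1.33 in PIWIL2 KO, and neither had any sense value. Summed over both starts these values correspond to 57 and 36 whole reads, so the starts appear to share 1 set of reads and are not separate evidence. The ratio of the sums was 0.602 (counting interval 0.385 to 0.929), in values that chose the gene. No annotated gene lay on the opposite strand, the nearest being 9086 bases away.

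FAAP20, a protein of the Fanconi anemia core complex, is on the minus strand at chr1:2115899-2116952. Its UTR had 1.71 antisense CPM in Caco2 WT against 1.55 in PIWIL2 KO and was listed at 0 on the sense strand. The ratio was 0.906 (0.476 to 1.73, about 22 and 21 reads). The 3′ end of PRKCZ, the gene of an atypical protein kinase C, ran into this region from the other strand and covered 936 of its bases, exons included. A read antisense to FAAP20 here has the sense sequence of PRKCZ, and the 2 sources cannot be told apart.

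PDZD2, a protein with several PDZ domains, had 0.47 antisense CPM in Caco2 WT against 0.30 in PIWIL2 KO over chr5:32108242-32111038 on the plus strand, with no sense value. The ratio was 0.638 (0.132 to 2.68, about 6 and 4 reads). An unnamed lncRNA gene, ENSG00000250764, spanned this region on the opposite strand with an intron and no exon.

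**Figure D2:**
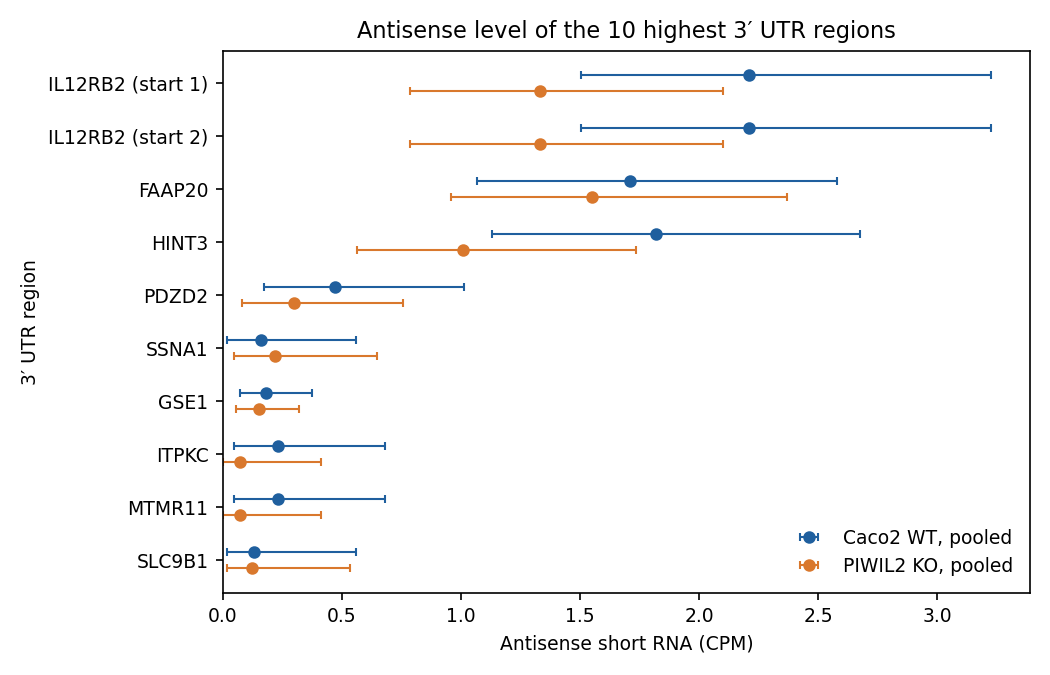
Antisense CPM on the x axis is plotted for the 10 regions with the highest mean, with Caco2 WT in blue, PIWIL2 KO in orange, and bars for exact 95% Poisson counting intervals of each pooled value. The IL12RB2 starts, FAAP20 and HINT3 are the only points above 1 CPM, and the bars of the genotypes overlap in every region. The bars of each IL12RB2 start were drawn from 29 and 18 reads, as if the starts had separate reads. They are wider than bars from 1 shared set of reads would be.

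Below these, the 5 next highest regions each rested on 1 to 7 estimated reads in a genotype. SSNA1, a microtubule-associated protein, had 0.16 antisense CPM in Caco2 WT against 0.22 in PIWIL2 KO with no sense value, and GSE1, a nuclear coiled-coil protein, had 0.18 and 0.15 CPM in each of its 3 identical rows. ITPKC, a kinase of inositol trisphosphate, and MTMR11, a myotubularin-related protein, both had 0.23 CPM in Caco2 WT against 0.07 in PIWIL2 KO, which stand for about 3 reads and 1 read. SLC9B1, a sodium and proton exchanger, had 0.13 and 0.12 CPM. In this group SSNA1 alone was higher in PIWIL2 KO, by about 1 read. GSE1 and ITPKC face the 3′ ends of GINS2, a subunit of a DNA replication complex, and ACTMAP, an actin maturation protease, with overlaps of only 7 and 5 bases, while CISD2, an iron-sulfur protein, spans the 281 bases of the SLC9B1 region. SSNA1 and MTMR11 have no opposite gene.

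The remaining regions were at the limit of detection. Summed over all rows of a region and both genotypes, 47 of the 79 regions had at most 1 estimated antisense read, 62 had at most 2, 11 had 3 to 9, and 6 had at least 10. The 47 include 12 regions with no whole read. The median was 1 read. Values as low as 0.01 CPM met the rule, such as ENTPD1, an ectonucleotidase, at 0.01 CPM in Caco2 WT in each of its 7 rows, and APOOL, a mitochondrial membrane protein, at 0.01 CPM in Caco2 WT. A region just outside the rule is listed at 0, which may be any value under 0.005 CPM.

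Some fractions of a read may come from reads divided over rows. Others stand in single-row regions with no opposite gene, such as NEFL at 0.03 CPM and CDC5L at 0.01 CPM in each genotype. The source of the latter was not tested. Of the 79 regions, 27 were listed in several rows, as isoforms that share a UTR, and the rows of a region had equal values. Of the 39 antisense values above 0 in these regions, 29 were whole reads once summed over the rows, within 0.005 CPM per row, against 6 for the single row. Since the division of reads is not settled, sums are given below both with each region once and over all 125 rows. Counting intervals were taken on the latter.

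Antisense CPM over the 79 regions summed to 11.7 in Caco2 WT and 8.44 in PIWIL2 KO, a ratio of 0.721 (log2 -0.47). Over all rows the sums were 13.24 and 9.72 CPM, about 171 and 132 reads, with a ratio of 0.734 (0.581 to 0.928). The regions held 16.2% of all antisense CPM of the table in Caco2 WT, and 14.0% in the KO. Without IL12RB2 the sums were 7.28 and 5.78 CPM and the ratio over all rows was 0.800 (0.605 to 1.06). Over the 74 regions below 0.3 CPM, the sums were 3.28 and 2.92 CPM, with a ratio over all rows of 0.871 (0.600 to 1.28). These intervals describe the counting error of the pooled libraries, for regions selected on the same values, and are not tests between genotypes.

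Across single regions no direction prevailed. Of the 79 regions, 37 had a lower antisense CPM in PIWIL2 KO and 36 a higher one, or 46.8% and 45.6%. Over all 115 regions of the table with an antisense value, these 79 included, the shares were 48.7% lower and 45.2% higher. A difference of 2-fold or more on the log2(CPM + 0.1) scale was met by 3 regions that were lower, against a background of 7.83%, and by 1 region that was higher, against a background of 0.87%. The 3 lower regions were KMT2D, a histone methyltransferase, ITPRIPL2 and WIPF3, each at 0.16 CPM in Caco2 WT and 0 in PIWIL2 KO, and the higher one was MAST3, a serine and threonine kinase, at 0 in Caco2 WT but 0.15 CPM in PIWIL2 KO. These 4 were singled out after their values were seen, and each rests on about 2 reads against 0, less than the 3 reads that a value of 0 allows.

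Antisense short RNA was listed in both genotypes for 30 regions, in Caco2 WT alone for 19, and in PIWIL2 KO alone for 30. The single-genotype shares were 24.1% and 38.0%, near the 26.1% and 35.7% of all 115 regions of the table with an antisense value. Regions found in 1 genotype alone did not exceed 0.16 CPM in Caco2 WT or 0.15 CPM in PIWIL2 KO, so their absence from the other genotype was not detectable at this depth. Among the 30 regions found in both, 18 were lower in PIWIL2 KO, 6 were higher and 6 were equal in CPM. Of the 44 such regions in the whole table, 59.1% were lower and 25% were higher. By estimated reads, 14 of the 30 regions had fewer, 5 had more and 11 had the same number. Of the 18 lower in CPM, 4 had equal reads, where the lower CPM reflects only the smaller worth of a read in PIWIL2 KO.

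**Figure D3:**
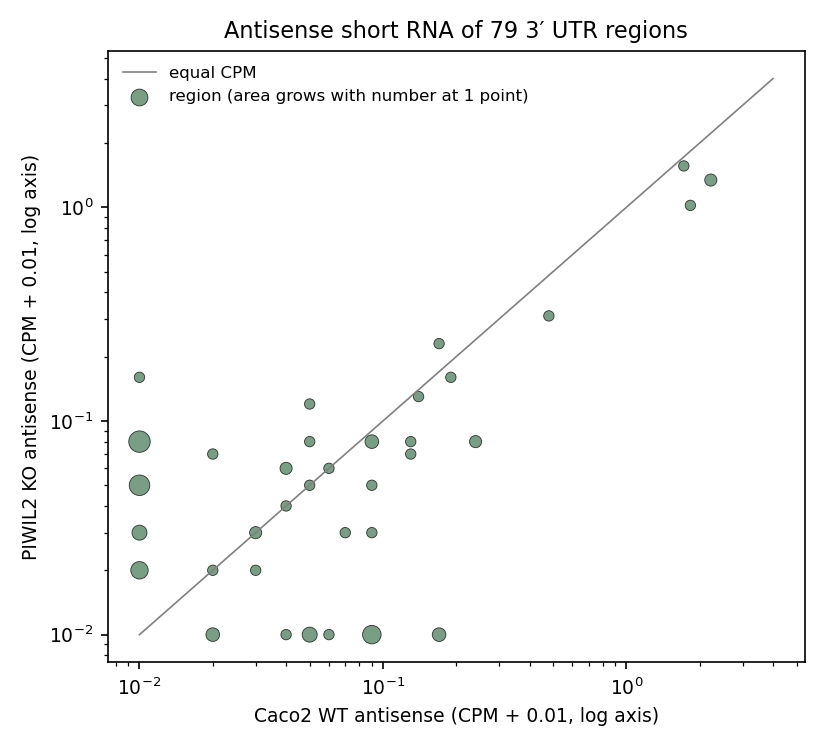
Antisense CPM of the 79 regions in Caco2 WT is plotted against PIWIL2 KO, with 0.01 CPM added so that values of 0 can be drawn on log axes, and with larger points where several regions share a value. The 19 regions found in Caco2 WT alone lie along the bottom edge, the 30 found in PIWIL2 KO alone along the left edge, and the 5 regions with a mean of at least 0.3 CPM lie below the line of equal values.

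On the sense strand the same regions held little short RNA. Sense CPM summed to 2.94 in Caco2 WT and 1.93 in PIWIL2 KO, and over all rows, about 44 and 29 reads, the ratio was 0.631 (0.379 to 1.03). The antisense share of the summed CPM was 79.9% in Caco2 WT and 81.4% in PIWIL2 KO, and 79.5% (73.5 to 84.7) and 82.0% (75.2 to 87.6) of estimated reads over all rows. The rule required an antisense value and set no condition on the sense strand, so these shares lean to antisense by selection and are a description. The 5 highest regions set much of this balance, since without them the antisense share was 53.4% and 60.2%. The 623 regions with sense short RNA only held far more sense signal, 88.7 CPM in Caco2 WT against 82.9 in PIWIL2 KO, led by EIF2AK3, an endoplasmic reticulum stress kinase, at 25.68 and 20.08 CPM, RAB22A, a small GTPase, at 6.67 and 6.57 CPM, and TMEM107, a membrane protein of the cilium, at 2.54 and 3.70 CPM.

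Of the 79 regions, 42 had no sense value in either genotype and 37 had one. Antisense exceeded sense in 54 regions, sense exceeded antisense in 20, and the strands were equal in 5. The 42 regions with no sense value are among the 54 by the rule itself. The largest sense value was that of H2BC21, a histone H2B gene, at 0.85 CPM in Caco2 WT against 0.30 in PIWIL2 KO, beside antisense values of 0 and 0.07 CPM. ST3GAL2, a sialyltransferase, had 0.31 and 0.15 sense CPM beside 0.08 and 0 antisense CPM, and KIF5B, a kinesin heavy chain, had 0.23 and 0.15 sense CPM beside 0 and 0.07 antisense CPM. These regions thus entered the set through a single antisense read.

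**Figure D4:**
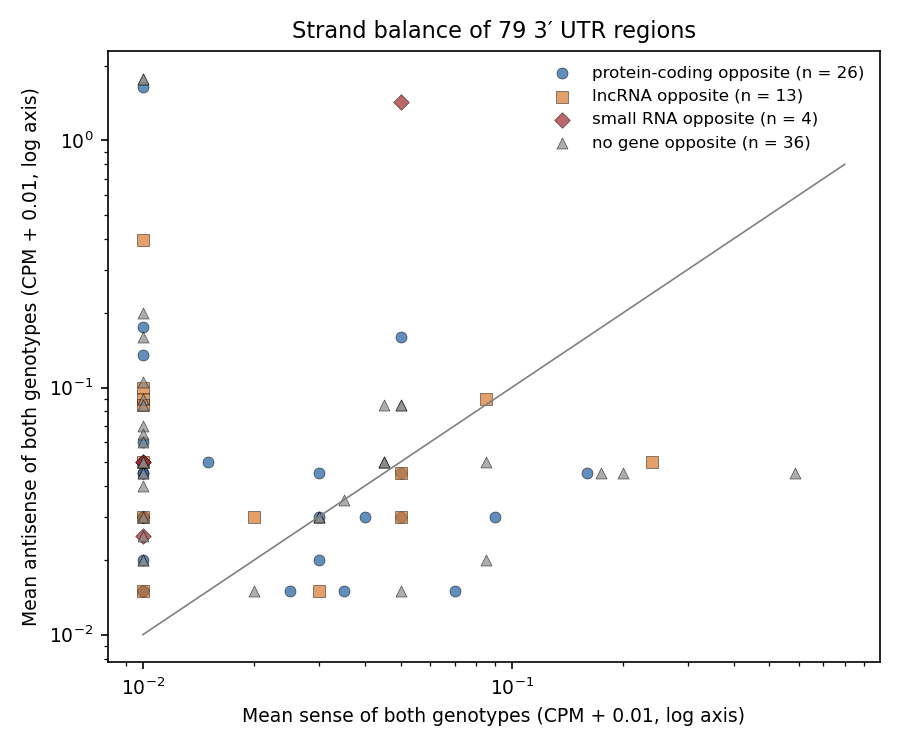
Mean sense CPM (x axis) and mean antisense CPM (y axis) of both genotypes are plotted for the 79 regions on log axes after adding 0.01 CPM, with symbols for the kind of gene on the opposite strand and a grey line for equal strands. The 42 regions with no sense value form the column at the left edge, which holds 4 of the 5 regions with at least 0.3 antisense CPM, HINT3 being the fifth.

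An annotated gene lay on the opposite strand in 43 of the 79 regions, or 54.4% (95% interval 42.8 to 65.7). The share was 22.6% (19.4 to 26.1) of the 623 regions with sense short RNA only and 25.1% (22.1 to 28.2) of the 798 listed at 0, and these intervals did not overlap that of the antisense regions. They treat regions as independent. An exon of the opposite gene was present in 49.4% of the antisense regions, against 16.7% and 15.4%. The rule did not use the annotation, but reads of an opposite gene can themselves place a region in the set. The median length was 3125 bases for the antisense regions, 3124 bases for those with sense only and 2829.5 bases for those listed at 0. Under 2000 bases, 47.4% of the antisense regions (24.4 to 71.1) and 23.0% of those with sense only (17.1 to 29.9) had an opposite gene, and these intervals overlapped. From there to 4000 bases the shares were 60.0% (42.1 to 76.1) and 22.0% (16.6 to 28.1), and above that 52.0% (31.3 to 72.2) and 22.9% (17.7 to 28.9). In the 1000 bases from the lowest coordinate of each region the shares were 44.3% and 19.1%. That end is upstream for plus-strand regions and downstream for minus-strand regions.

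Each region was put in 1 class by its opposite genes, with small RNA genes ranked first, then protein-coding genes, then lncRNAs. The classes held 4 regions with a small RNA gene, 26 with a protein-coding gene and 13 with an lncRNA or pseudogene transcript. With SIAE, which faces both a small RNA gene and TBRG1, 27 regions had a protein-coding gene opposite. That was 34.2% of the antisense regions (23.9 to 45.7), 9.63% of those with sense only (7.43 to 12.2) and 12.8% of those listed at 0. For lncRNAs the shares were 16.5% (9.06 to 26.5), 11.4% and 11.3%, and the intervals overlapped. Small RNA genes stood opposite 5.06% (1.40 to 12.5), 0.161% (0.00406 to 0.891) and 0.251%, that is 4, 1 and 2 regions.

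Tail-to-tail pairs, in which the 3′ end of the opposite gene falls inside the region, were more frequent among the antisense regions. They were found in 20, or 25.3% (16.2 to 36.4), against 4.98% (3.41 to 6.99) of regions with sense only and 6.02% (4.47 to 7.90) of those listed at 0. In 18 of the 20 the converging gene was protein-coding. Beside FAAP20, GSE1 and ITPKC they include GATC, which faces the splicing factor gene SRSF9 over 2078 bases, and USP47, a deubiquitinase, which faces DKK3, a secreted Wnt regulator, over 5681 bases. GATC and USP47 were at 0 in Caco2 WT but 0.04 CPM in PIWIL2 KO. The opposite gene spanned the whole region in 17 cases, or 21.5% (13.1 to 32.2), against 11.9% (9.44 to 14.7) and 14.3%, lay wholly inside it in 6, and had its 5′ end inside it in 2, MAST3 with MAST3-AS1 and ST3GAL2 with an unnamed lncRNA. The spanning genes include TYMS, thymidylate synthase, over ENOSF1, which had 0.08 antisense CPM in Caco2 WT against 0.02 in PIWIL2 KO, and PAX8-AS1 over PAX8, a thyroid and kidney transcription factor, which had 0.02 CPM in each.

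**Figure D5:**
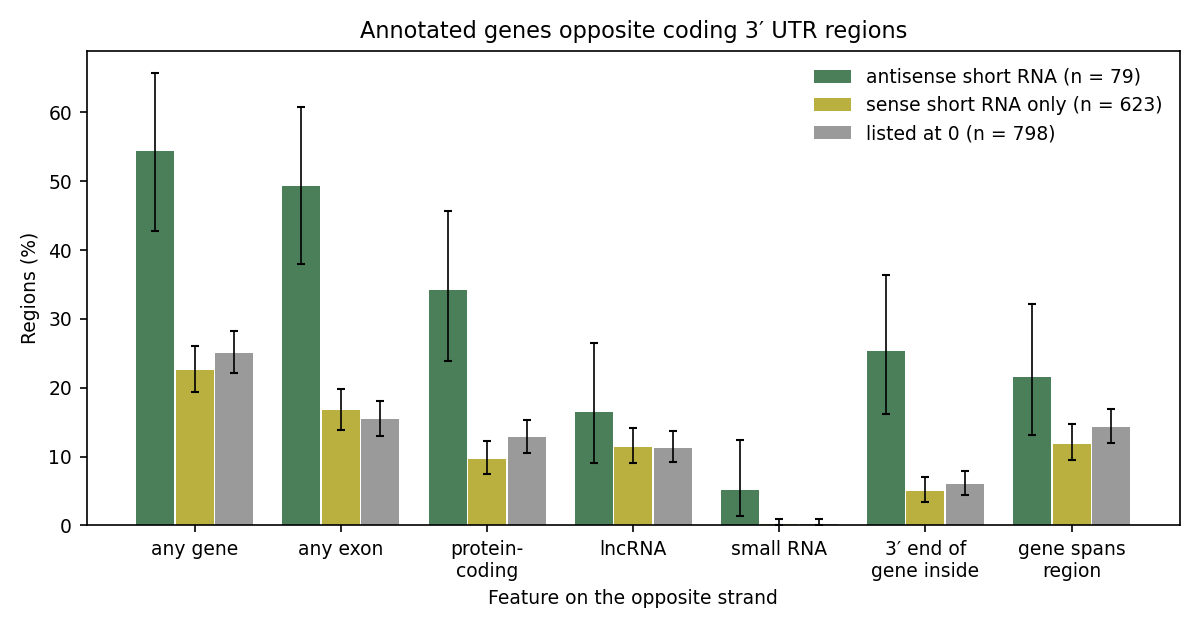
The bars give the percentage of coding 3′ UTR regions with each feature on the opposite strand, for regions with antisense short RNA (green, n = 79), with sense short RNA only (yellow, n = 623) and listed at 0 (grey, n = 798), with exact 95% intervals. For any gene the bars stand at 54.4%, 22.6% and 25.1%, for a 3′ end inside the region at 25.3%, 4.98% and 6.02%, and for lncRNAs the intervals overlap.

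The median of the mean antisense level was 0.035 CPM in the 43 regions with an opposite gene and 0.04 CPM in the 36 without, both below the worth of 1 read, so a difference between them was not detectable at this depth. Those with one summed to 5.55 CPM in Caco2 WT against 4.34 in PIWIL2 KO, with a ratio over all rows of 0.798 (0.578 to 1.12), and those without to 6.15 and 4.10 CPM, with a ratio of 0.672 (0.478 to 0.949). Without IL12RB2, the latter were 1.73 and 1.44 CPM, and the ratio over all rows was 0.807 (0.461 to 1.45). The difference between these ratios was not tested.

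The 26 regions of the protein-coding class had nearly equal sums in the genotypes, 2.53 CPM in Caco2 WT against 2.55 in PIWIL2 KO, with a ratio over all rows of 1.00 (0.639 to 1.56). FAAP20 held most of both, and without it the sums were 0.82 and 1.00 CPM (1.11 over all rows, 0.575 to 2.10). Of these 26 regions, 14 were found in PIWIL2 KO alone, 4 in Caco2 WT alone and 8 in both, and of the 36 with no opposite gene, 12, 10 and 14. Most of these regions rest on 1 read or less, and the difference between the classes was not tested. Regions opposite an lncRNA summed to 1.12 and 0.67 CPM (0.603, 0.248 to 1.30), and those opposite a small RNA gene to 1.90 and 1.12 CPM (0.589, 0.280 to 1.13), of which HINT3 held nearly all. On the sense strand, the 43 regions with an opposite gene summed to 1.41 and 0.59 CPM, about 22 and 9 reads over all rows (0.417, 0.158 to 0.880), and the 36 without to 1.53 and 1.34 CPM (0.842, 0.448 to 1.66). These intervals were not adjusted for the number of groups.

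Among the 36 regions with no opposite gene, 6 had one within 1000 bases, or 16.7% (6.37 to 32.8), against 6.22% (4.24 to 8.77) of the regions with sense only and no opposite gene. The median distance to the nearest gene of the other strand was 4026.5 bases, against 13395 bases. Among the closest were PCYOX1, a prenylcysteine oxidase, at 177 bases and with 0.02 CPM in PIWIL2 KO alone, and H2BC21 at 236 bases. IL12RB2, at 9086 bases, and MTMR11, at 28192 bases, were among those far from any such gene.

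For 7 of the regions the facing gene also had a coding 3′ UTR in the table, so its own sense value could be read. TMEM120B had 0.04 antisense CPM in Caco2 WT, and RHOF, whose UTR shares 1909 bases with it, had 0.04 sense CPM there, and both were listed at 0 in PIWIL2 KO. Together these 0.08 CPM are 1.03 times the worth of 1 read. ATP6V1C2, a subunit of the vacuolar proton pump, and PDIA6, a protein disulfide isomerase, share 936 bases, and in PIWIL2 KO their rows summed to 0.12 antisense and 0.10 sense CPM, or 2.98 reads. In both pairs the single-row values were fractions of a read, while the antisense and sense values together came close to whole reads. Whether 1 read was divided between an antisense and a sense row was not tested.

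The others were less simple. NAPEPLD, a phospholipase, and ARMC10 share 184 bases, and their rows in PIWIL2 KO summed to 0.04 antisense and 0.12 sense CPM, or 2.17 reads. SLC46A1, a folate transporter, and SARM1, an enzyme of axon degeneration, share 3424 bases and are both in the set. SLC46A1 had 0.04 antisense CPM in Caco2 WT, where SARM1 had no sense value. SARM1 had 0.02 antisense CPM in PIWIL2 KO, where SLC46A1 had 0.06 sense CPM. Over all rows these sums were 1.03 reads in Caco2 WT and 1.90 in PIWIL2 KO. MAT2A, which makes S-adenosylmethionine, and GGCX, the vitamin K-dependent carboxylase, share 427 bases and are also both in the set. GGCX had 0.04 antisense CPM in each genotype, beside sense values of MAT2A of 0.12 CPM in Caco2 WT and 0 in PIWIL2 KO. Over all rows these made 2.58 reads in Caco2 WT and 1.08 in PIWIL2 KO. The antisense value of MAT2A and the sense value of GGCX made 0.41 reads in PIWIL2 KO. For a read in bases shared by a pair of genes, antisense RNA of one and sense RNA of the other cannot be told apart.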

How the data were processed

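Short RNA of 6 Caco2 samples was sequenced as single-end reads. The authors trimmed adapters with cutadapt 1.15 and counted reads on each strand with the piPipes pipeline, and the submitters' notes also name Bowtie2 and hg19. The deposited table gives CPM (also called RPM), scaled to reads uniquely mapped to hg19 and rounded to 2 decimals. It holds 1 value per genotype and strand over 3 samples each, so replicate error is unknown. Whether reads that map to several places were also counted was not tested. The 3437 rows are named as 3′ UTRs, of which 2730 are coding. How reads were divided between rows, if they were, is not given in the sources used here. It was inferred from the values and not tested.

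Repeat rows of 1 chromosome, start and strand were merged. Each region ran from its deposited start to the end of the annotated exon of the same strand (GENCODE 44 on GRCh37, the exon at the start or within 200 bases), and a gene body of the other strand overlapping by at least 1 base was counted as opposite. Symbols came from RefSeq by accession for all 79 regions, names only, since that table is of another build. Reads were estimated from the smallest step in the values, of which 76.5% (of 603) and 72.4% (of 609) low values were whole reads in Caco2 WT and PIWIL2 KO. Log2 ratios used CPM + 0.1, and calls a 2-fold change. Python 3.11.15, numpy 2.4.6, pandas 2.3.3 and scipy 1.17.1 were used, and the scripts were tested on simulated data.

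Regions named are all with a mean antisense level of at least 0.3 CPM, the 5 next highest, all facing a small RNA gene, and the 3 highest with sense only. Others were chosen after their values were seen. The regions, lists and rules were chosen with earlier results of these data known.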

Additional observations from a re-analysis of the deposited data

How the results depend on the processing

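Of 55 alternative values, 41 stayed close to the reported ones and 14 moved. A reversal was looked for only in the antisense sum, where no alternative reversed. Rescaling PIWIL2 KO to the Caco2 WT sum of the table (a factor of 0.748, a log2 shift of -0.42 for every region) brought the log2 ratio of the antisense sum from -0.47 to -0.89 and made 3 of the 5 regions of at least 0.3 CPM lower by 2-fold or more. With no minimum on CPM, 37 regions were lower, 36 higher, 3 lower by 2-fold and 1 higher by 2-fold. Without H2BC21, which has the largest sense value, the antisense share in Caco2 WT was 84.8%. Without the 5 highest regions, a setting chosen after seeing the data, it was 53.4% in Caco2 WT and 60.2% in PIWIL2 KO. Taking the deposited start base alone, which is the lowest coordinate on either strand, 35.4% of the regions had an opposite gene. With a window of 1000 bases, regions with an opposite gene summed to 3.08 CPM in Caco2 WT against 3.02 in PIWIL2 KO, and those without to 8.62 and 5.42 CPM. In PIWIL2 KO this changed the order of the groups, which was 4.34 against 4.10 CPM with the whole region. Counting only exons of the opposite gene changed it as well, to 3.89 against 4.55 CPM. The first shift is that of the factor itself, and the others follow from which regions or bases each setting keeps. No paired analysis was possible because the columns are pooled over the samples of a genotype, and for the same reason no sample could be left out. Depth limits every region but the few highest, since most rest on 1 read or less.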

Other observations

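None of the 14 piRNA pathway genes examined had a 3′ UTR in the set. EXD1, a partner protein of the pathway, was the only one with a coding region in the table and was listed at 0 on both strands. Of 8 colon epithelial marker genes, 2 had a region in the table, both without antisense short RNA: CDH1, the epithelial cadherin, with 0.08 sense CPM in Caco2 WT against 0.30 in PIWIL2 KO, and KRT8, a keratin, with 0.03 CPM in Caco2 WT alone. Of 4 marker genes of other cell types, PECAM1 of endothelial cells had a region and was listed at 0. Short RNA over a 3′ UTR does not measure the level of the messenger RNA, so the cell type could not be checked in this way.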
